A study of Brassica napus with 11 samples.

Results

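The epidermis of the *Brassica napus* (canola) funiculus was compared with the whole funiculus, the stalk that joins the seed to the silique. All plants were of the cultivar Topaz, line DH4079, with no treatment named, and the tissue was taken 7 days after pollination, at the globular stage. There were 3 libraries of the outer cell layer, freed by laser microdissection, which were set against whole funiculus libraries 1 and 3, which were collected with the same laser and still contain their own epidermis. These are 5 of the 11 libraries of the series. Of 97902 transcripts in the deposited table, 41906 averaged 1 FPKM or more (fragments per kilobase of transcript, scaled to the mapped reads of the library) in the epidermis or in the whole funiculus, and these were compared on the scale log2(FPKM + 1). The 2 cortex and 3 vasculature libraries of the series lent the fit a shared estimate of the spread, and their levels show where in the organ a transcript was highest. Each replicate combined dissected pieces from several plants, so that p-values measure the spread between such pools, and no source says that libraries with the same number share plants. The RNA was amplified before sequencing.

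The plant epidermis is a single sheet of cells that covers the organ and secretes the cuticle, a layer of cutin polyester and wax that holds back water. Its identity depends on homeodomain regulators of the HD-ZIP IV class. Fatty acid elongases, hydroxylases, acyltransferases, GDSL lipases and lipid transfer proteins make and export the cuticle. The study reports no prominent cuticle on the canola funiculus, unlike that of *Arabidopsis*, although its epidermis list was enriched for cutin synthesis. The funiculus also carries 1 vascular strand, whose phloem delivers sugar to the seed and whose xylem delivers water and minerals through cells with thick, lignified walls. In bulk samples of this kind, fewer cells of a type and less RNA per cell cannot be told apart.

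Whole funiculus 2 stood apart from every other library and was left out. Over the 41906 transcripts its Pearson correlation with the 10 others on the log2 scale was 0.0785 to 0.120, against 0.637 to 0.741 between epidermis and whole funiculus 1 and 3, 0.751 to 0.812 among the 3 epidermis libraries and 0.833 between whole funiculus 1 and 3. These values describe libraries that share transcripts and differ in depth, and they carry no test. Read depth was judged from the most common FPKM ratio to whole funiculus 3 among transcripts above 0 in at most 4 libraries. Relative to whole funiculus 3 it was 0.339 to 0.493 in the epidermis libraries and 0.758 in whole funiculus 1. The shallower epidermis libraries reached 1 FPKM for 34678, 34365 and 34958 transcripts and the whole funiculus libraries for 37021 and 37307. The epidermis mean was 34667 ± 297 (SD, n = 3) and the whole funiculus mean 37164 ± 202 (SD, n = 2), a difference of -2497 (exact permutation test, two-sided, p = 0.1, the smallest that 10 splits allow). The part of depth in this difference was not tested.

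Markers of 6 cell types were summed in each library. All of them are on the lists that the study chose for being high in a tissue of these same libraries, so that high epidermis and low vascular sums were fixed in part by the choice and are no independent check of the label. The 8 epidermis marker transcripts, which include homologs of *PDF2*, *MYB16*, *SHN3*, *PEL3*, *KCS10*, *CYP86A2* and *LTP2*, summed to 3772, 2021 and 3444 FPKM in the epidermis libraries, against 464.6 and 426.3 FPKM in the whole funiculus. All 3 epidermis libraries stood above both whole funiculus libraries, and 3 of the 8 transcripts passed the test as higher. Most of each sum was the *LTP2* homolog alone, with 3253, 1610 and 2917 FPKM in the epidermis, against 334 and 335 FPKM in the whole funiculus, and this transcript was not called. The 7 xylem markers summed to 2.37, 1.16 and 2.03 FPKM in the epidermis, against 30.7 and 46.2 FPKM in the whole funiculus, and 5 of the 7 were listed at 0 in all 3 epidermis libraries. The 10 phloem markers summed to 9.58, 8.24 and 3.93 FPKM in the epidermis, against 371 and 329 FPKM in the whole funiculus. The vascular markers were thus low but not absent in the dissected layer.

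Cortex markers did not separate the dissected layer from the organ in the same way. The 6 cortex markers, homologs of *TIP1;1*, *GASA6* and an extensin-like gene, summed to 469, 498 and 445 FPKM in the epidermis, against 579 and 885 FPKM in the whole funiculus and 2553 and 3068 FPKM in the cortex. The groups did not overlap, yet 1 of the 6 transcripts, *TIP1;1*, passed the test. The part of cortex cells in the epidermis libraries was not tested. Markers of dividing cells summed to 2.52, 5.81 and 6.76 FPKM in the epidermis, against 21.0 and 24.7 FPKM in the whole funiculus, with 2 of 7 lower by the test.

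**Figure D1:**
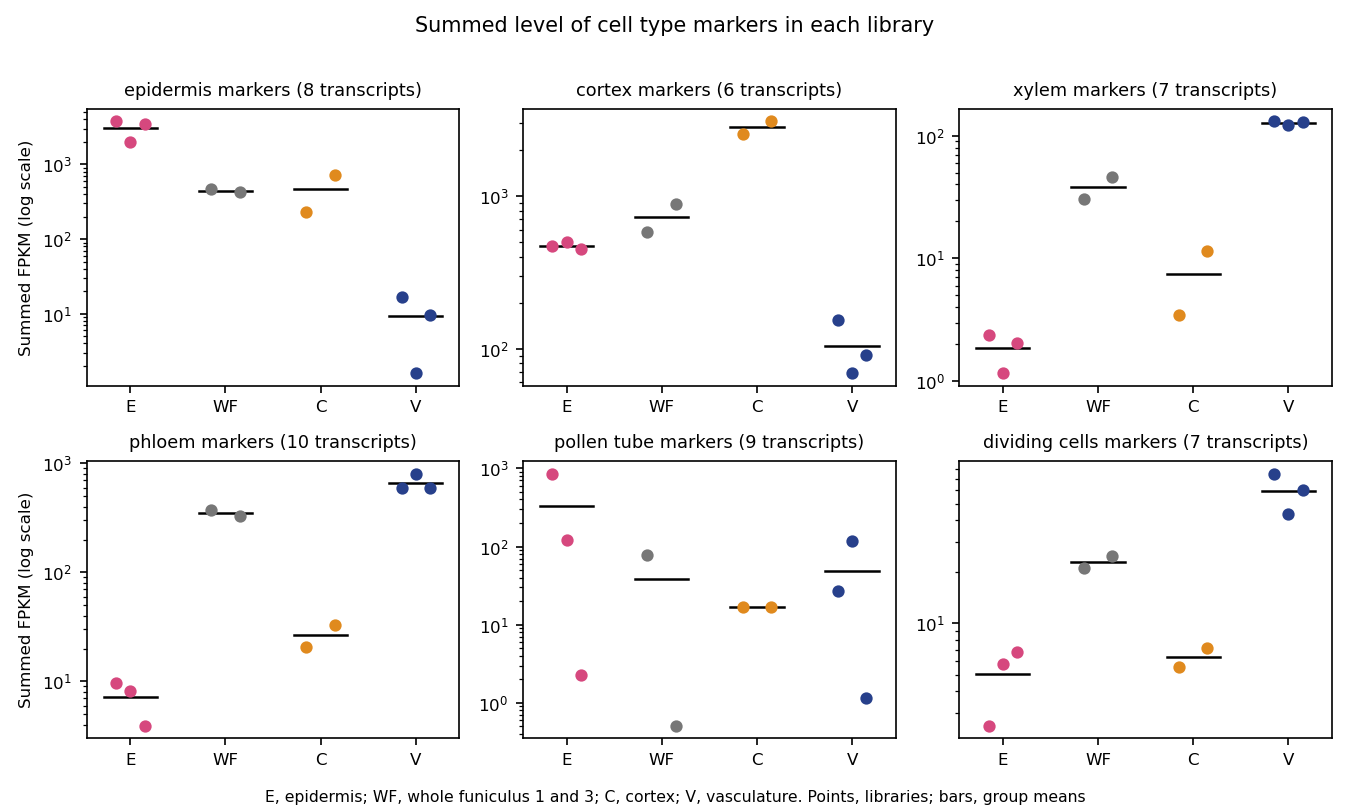
Summed FPKM of the marker transcripts of 6 cell types in each library on log axes, with epidermis (E), whole funiculus 1 and 3 (WF), cortex (C) and vasculature (V) from left to right, points for libraries and bars for group means. Epidermis markers lay at 2021 to 3772 FPKM in the epidermis and at 426.3 and 464.6 FPKM in the whole funiculus, phloem and xylem markers lay far lower in the epidermis, and pollen tube markers ran from 2.29 to 857 FPKM within the epidermis.

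More transcripts were called lower than higher in the dissected layer, and by larger differences. The whole funiculus contains its own epidermis and the epidermis libraries were shallower, and the part of either in this imbalance was not tested. Of the 41906 transcripts, 263 (0.628%) were called higher in the epidermis and 1384 (3.3%) lower, relative to the whole funiculus (limma, Benjamini-Hochberg adjusted p under 0.05). The median difference of all transcripts was 0.02 on the log2 scale. Without adjustment, 2415 were higher and 4097 lower at a p under 0.05. Every called transcript had groups that did not overlap, but so did many that were not called: all 3 epidermis libraries stood above both whole funiculus libraries for 6025 transcripts (14.4%) and below both for 6994 (16.7%). The gains had a median log2 difference of 1.84 and a largest of 3.25, with 90 of 263 at 4-fold or more on the log2(FPKM + 1) scale and 0 at 16-fold. The losses had a median of -2.51 and a largest of -8.88, with 1008 of 1384 at 4-fold or more and 195 at 16-fold or more.

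These counts depended on the libraries. Of the 263 gains and 1384 losses, 109 (41.4%) and 1005 (72.6%) were called again without epidermis 1. The fit on the 5 libraries alone called 81 (30.8%) and 819 (59.2%) again, and fits without a whole funiculus library called fewer. The totals that follow do not show this overlap. With whole funiculus 2 added, 4 transcripts were higher and 155 lower. Without whole funiculus 3, the deepest library, 48 were higher and 731 lower, without whole funiculus 1 113 were higher and 1171 lower, and without epidermis 1 148 were higher and 1071 lower.

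The gained set was small. Its 263 transcripts had median levels of 17.4 FPKM in the epidermis and 4.43 FPKM in the whole funiculus, with 4.84 FPKM in the cortex and 0.399 FPKM in the vasculature. The set took 2.71, 2.23 and 2.44% of the summed FPKM in the epidermis libraries, against 0.708 and 0.497% in the whole funiculus. The epidermis had the highest mean of the 3 tissues for 258 of the 263 (98.1%), against 34.2% of all 41906 tested, which the choice of the set by its epidermis level largely fixes. Both cortex libraries stood below all epidermis libraries for 242, and 50 were listed at 0 in all vasculature libraries. Over all 41906 tested, these counts were 4778 and 1661. By the letter in their names, 127 lie on the A and 134 on the C subgenome.

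The lost set was mostly highest in the vascular strand. Its 1384 transcripts had median levels of 0.127 FPKM in the epidermis and 7.503 FPKM in the whole funiculus, with 1.12 FPKM in the cortex and 13.1 FPKM in the vasculature. The set took 0.347, 0.393 and 0.292% of the summed FPKM in the epidermis, against 7.42 and 7.28% in the whole funiculus. The set was chosen by low epidermis and high whole funiculus values. The spread within the cortex and the vasculature also entered the test, so the choice was not free of these tissues. The vasculature was highest for 1326 (95.8%) and the cortex for 42. Over all 41906 tested, the vasculature was highest for 38.2%, the cortex for 27.7% and the epidermis for 34.2%. The choice of the set largely excludes transcripts of this last kind. Of the lost set, 588 (42.5%) were listed at 0 in all 3 epidermis libraries, against 4.42% of all tested. For 801 of the 1384 all 3 vasculature libraries stood above both whole funiculus libraries, as they did for 7227 of the 41906 tested. The share with the vasculature highest was 78.3% without whole funiculus 1.

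**Figure D2:**
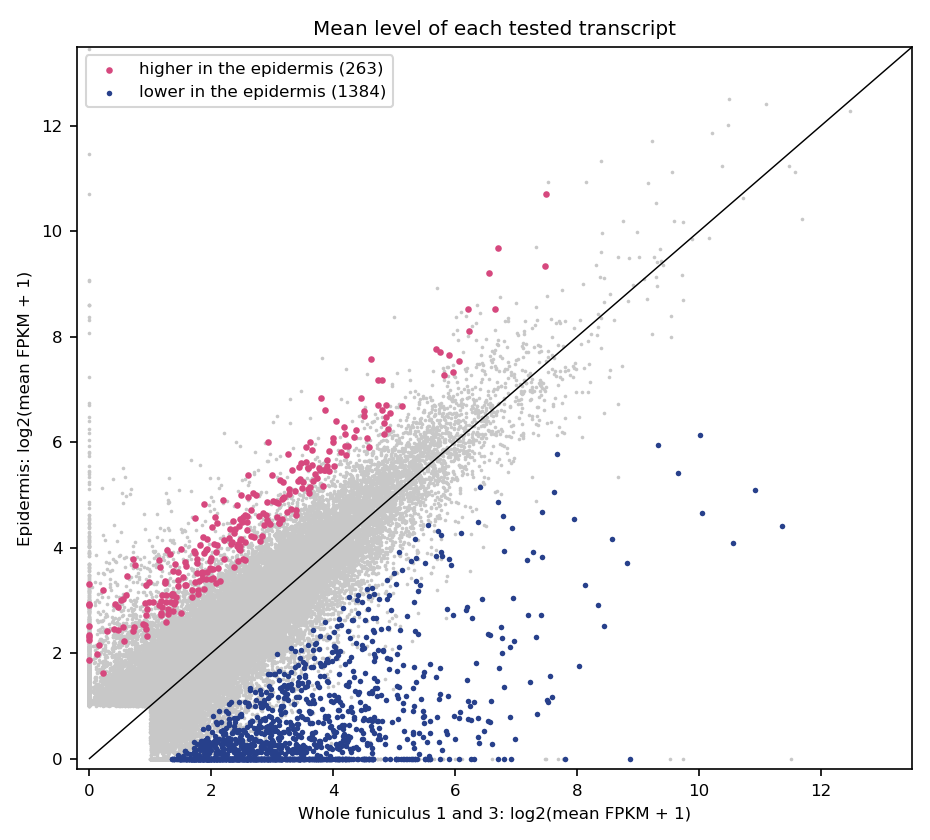
Mean level of each of the 41906 tested transcripts, as log2(mean FPKM + 1), in the epidermis (vertical axis) and in whole funiculus 1 and 3 (horizontal axis), with the line of equal level. The 263 transcripts called higher lie in a band close above the line, whereas the 1384 called lower spread down to the bottom edge, where 588 of them were listed at 0 in all 3 epidermis libraries.

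The described transcript with the largest gain encoded a glycine-rich protein. These small proteins, rich in glycine, are known from plant cell walls. The *GRP23* homolog BnaC03g18040D stood at 1891, 965 and 2175 FPKM in the epidermis, against 217 and 142 FPKM in the whole funiculus. Each epidermis library was more than 4 times the higher whole funiculus library, and the cortex (72.8 and 233 FPKM) spanned the whole funiculus levels while the vasculature stayed at 0.870 to 5.57 FPKM. The log2 difference was 3.17 ± 0.63 (SE, limma adjusted p = 0.0201), and the call was kept in 1 of 5 fits that left out a library, that without epidermis 2 (adjusted p from 0.0259 to 0.218). Its homolog BnaA03g15020D stood at 999, 463 and 1021 FPKM in the epidermis, against 131 and 75.3 FPKM in the whole funiculus (2.96 ± 0.58, adjusted p = 0.0189), and its call too was kept without epidermis 2 alone (highest adjusted p of 0.217). The A and C copies run in parallel over the libraries, with epidermis 2 lowest of the 3, but reads of near-identical homologs can be shared, so that their levels are not fully separate. A further copy, BnaA04g18980D, averaged 834 FPKM in the epidermis and 160 FPKM in the whole funiculus and missed the threshold (2.32, adjusted p = 0.11). A second glycine-rich gene, BnaC07g41690D, stood at 34.3, 19.1 and 68.2 FPKM in the epidermis, against 2.52 and 7.64 FPKM in the whole funiculus (2.73 ± 0.52, adjusted p = 0.0151), and was listed at 0 in all vasculature libraries. Its call was lost without whole funiculus 1 (adjusted p = 0.158).

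Cuticle genes lay above the whole funiculus in most cases, and a minority passed the test. Of the 20 cuticle and wax transcripts, all of which stem from the lists that the study itself picked on these libraries and are no independent evidence of direction, 5 were called higher and 0 lower. Their median log2 difference was 1.52, and in 16 of 20 all epidermis libraries stood above both whole funiculus libraries. Over all 41906 tested, 0.628% were called higher and 14.4% had all epidermis libraries above both. The 5 calls fell to 0 without epidermis 1 or without whole funiculus 3, to 1 without whole funiculus 1 and to 2 without epidermis 2 or epidermis 3.

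*PEL3* encodes an acyltransferase needed for cutin formation in *Arabidopsis*. Its homolog BnaC02g41520D stood at 391, 292 and 422 FPKM in the epidermis, against 92.8 and 54.2 FPKM in the whole funiculus. The lowest epidermis library was more than 3 times the highest whole funiculus library, and the difference was 2.34 ± 0.47 (adjusted p = 0.0198, from 0.0386 to 0.212 with 1 library left out). The other *PEL3* homolog, BnaA06g26500D, had 5.92, 3.92 and 9.92 FPKM in the epidermis, against 1.32 and 1.67 FPKM in the whole funiculus, and missed the threshold at adjusted p = 0.0919. Both copies were higher in every epidermis library, but only the abundant C copy was called, and the difference between copies was not tested.

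*KCS10* encodes the elongase known in *Arabidopsis* as FIDDLEHEAD, which makes long-chain lipids of the epidermis. Its homolog BnaA09g40640D had 32.3, 32.7 and 18.1 FPKM in the epidermis, against 8.58 and 6.51 FPKM in the whole funiculus (1.71 ± 0.33, adjusted p = 0.0167), and was listed at 0 in all vasculature libraries. Its call was kept without epidermis 3 and lost in the other 4 fits without 1 library (highest adjusted p of 0.159). The GDSL lipase BnaCnng34700D, of a family that links cutin monomers, had 366, 353 and 390 FPKM in the epidermis, against 129 and 71.9 FPKM in the whole funiculus (1.93 ± 0.46, adjusted p = 0.0461). The epidermis libraries were close to each other and well above both whole funiculus libraries, yet this call was lost in each of the 5 fits that left out a library (adjusted p from 0.0899 to 0.334). The *LUP2* homolog BnaC06g39380D, for a cyclase that makes the triterpenes of surface waxes, had 45.8, 58.7 and 75.9 FPKM in the epidermis, against 23.3 and 11.3 FPKM in the whole funiculus (1.79 ± 0.42, adjusted p = 0.0454). The predicted long-chain fatty alcohol dehydrogenase BnaA03g44000D had 8.66, 9.56 and 4.61 FPKM in the epidermis, against 1.498 and 1.30 FPKM in the whole funiculus (1.79 ± 0.35, adjusted p = 0.0185). Without 1 library, the *LUP2* call was lost in all 5 fits and that of the dehydrogenase in 4, with highest adjusted p values of 0.334 and 0.126.

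The most abundant cuticle transcript was not among the calls. The *LTP2* homolog BnaAnng27610D, for a lipid transfer protein secreted to the wall, had 3253, 1610 and 2917 FPKM in the epidermis, against 334 and 335 FPKM in the whole funiculus. The groups lay far apart, with a log2 difference of 2.89 ± 0.85, but the spread over the 10 libraries gave an adjusted p of 0.11. It was 0.0319 in the fit on the 5 libraries alone, the 1 alternative in which it passed, and 0.138 to 0.417 with 1 library left out. The *CYP86A2* homolog BnaCnng02380D, for a fatty acid hydroxylase of cutin synthesis, had 46.1, 30.1 and 20.01 FPKM in the epidermis, against 6.85 and 9.47 FPKM in the whole funiculus (1.79, adjusted p = 0.0778). It too had groups that did not overlap without reaching the threshold.

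Regulators of the epidermis were measured at lower levels. *PDF2* is an HD-ZIP IV regulator that keeps the identity of the outer layer. Its homolog BnaC09g22500D had 11.5, 8.57 and 5.91 FPKM in the epidermis, against 2.17 and 1.33 FPKM in the whole funiculus (1.79 ± 0.35, adjusted p = 0.0170), with 0 in all vasculature libraries, and its call was lost without epidermis 1, epidermis 2 or whole funiculus 3 (highest adjusted p of 0.151). The *MYB16* homolog BnaC02g05990D, for a regulator of cuticle genes, had 19.1, 14.2 and 24.3 FPKM in the epidermis, against 7.01 and 3.66 FPKM in the whole funiculus (adjusted p = 0.194). The *SHN3* homolog BnaC09g04040D, of the AP2 regulators that switch on cuticle genes, had 13.54, 29.0 and 27.8 FPKM in the epidermis, against 11.9 and 14.9 FPKM in the whole funiculus, where the groups overlapped. All 3 regulators were listed at 0 in every vasculature library.

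Outside the study's tissue lists, descriptions were held only for chromosome A01 and the start of A02, whose 1999 transcripts include some on those lists. Of the 13 lipid and cuticle proteins among the 1999, 2 were higher and 0 lower, with a median of 0.33. The lipid transfer protein BnaA01g35710D had 59.7, 38.7 and 32.5 FPKM in the epidermis, against 5.04 and 12.9 FPKM in the whole funiculus (2.24 ± 0.49, adjusted p = 0.0317). The GDSL lipase BnaA01g15910D had 30.6, 25.8 and 32.8 FPKM in the epidermis, against 10.9 and 5.14 FPKM in the whole funiculus (1.84 ± 0.40, adjusted p = 0.0320). Both had groups well apart, and both were at or under 0.5 FPKM in the vasculature. With 1 library left out, adjusted p reached 0.254 and 0.275. A *MYB16* homolog on A02, BnaA02g02580D, had 17.3, 14.9 and 9.26 FPKM in the epidermis, against 5.03 and 5.67 FPKM in the whole funiculus (1.18, adjusted p = 0.0961).

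**Figure D3:**
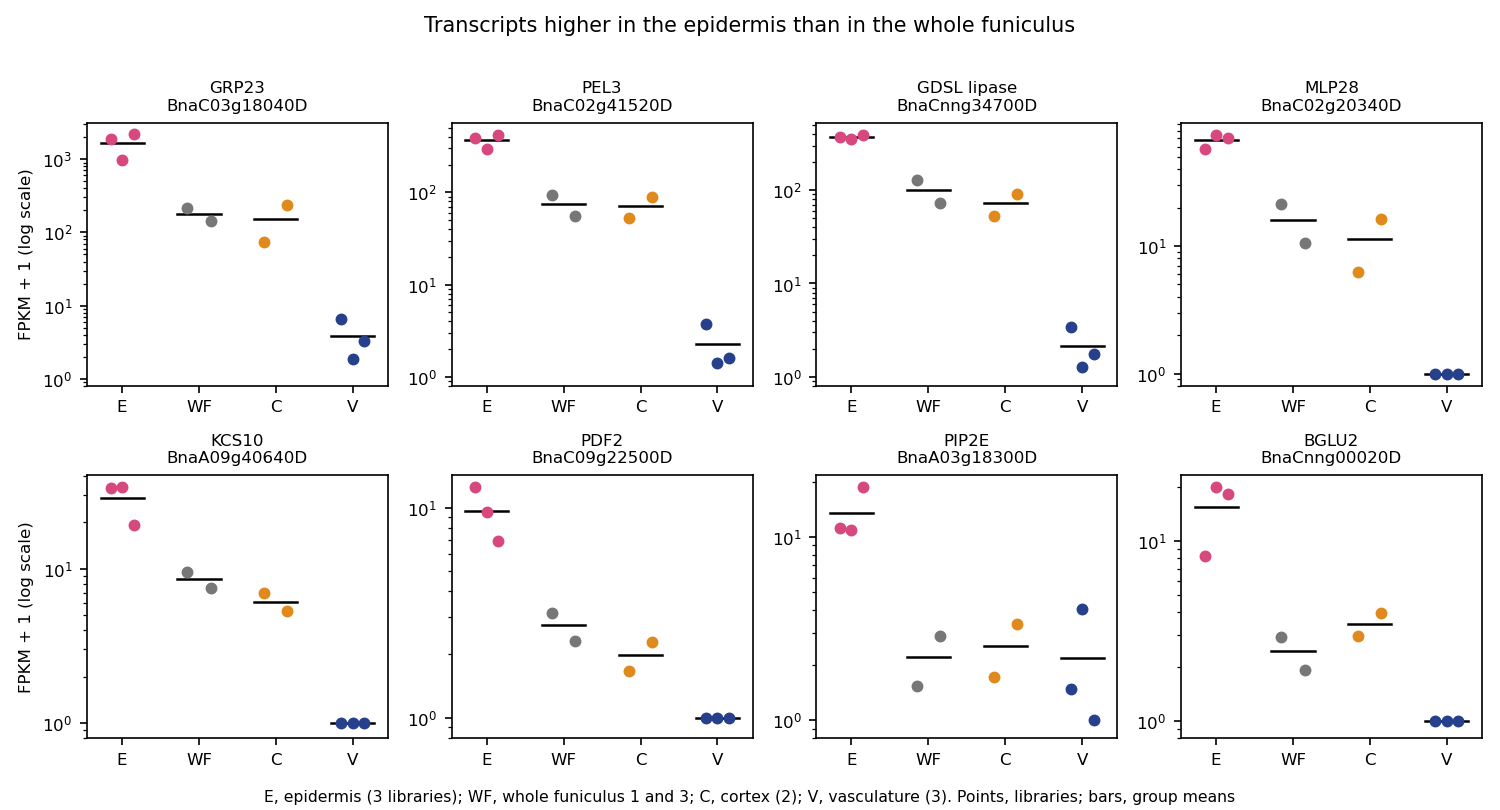
FPKM + 1 on log axes for 8 transcripts called higher in the epidermis, with epidermis (E), whole funiculus 1 and 3 (WF), cortex (C) and vasculature (V) from left to right, points for libraries and bars for group means. In each panel the 3 epidermis points lie above both whole funiculus points, for *GRP23* at 965 to 2175 FPKM against 142 and 217 FPKM, and the vasculature mean is the lowest of the 4.

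Several other gains had roles outside the cuticle. The *PIP2E* homolog BnaA03g18300D, for a plasma membrane water channel, had 10.1, 9.85 and 17.7 FPKM in the epidermis, against 0.529 and 1.87 FPKM in the whole funiculus (2.65 ± 0.59, adjusted p = 0.0362, and from 0.0709 to 0.278 with 1 library left out). The β-glucosidase BnaCnng00020D, of an enzyme family that splits sugar conjugates, had 7.22, 18.9 and 17.2 FPKM in the epidermis, against 1.94 and 0.919 FPKM in the whole funiculus (2.60 ± 0.41, adjusted p = 0.00599). The *CRF4* homolog BnaC07g41100D, a transcription factor gene known for its response to cytokinin, had 7.92, 14.4 and 14.5 FPKM in the epidermis, against 0.744 and 3.20 FPKM in the whole funiculus (2.25 ± 0.48, adjusted p = 0.0289). For each of the 3, the lowest epidermis library stood above the highest whole funiculus library. With 1 library left out, the β-glucosidase kept its call in 4 of 5 fits (lost without whole funiculus 3, adjusted p = 0.0988) and *CRF4* in 2 (highest adjusted p of 0.232).

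The defence-related list held calls in both directions. The *MLP28* homolog BnaC02g20340D, of the latex-protein-like family, had 56.5, 73.2 and 69.2 FPKM in the epidermis, against 20.3 and 9.62 FPKM in the whole funiculus (2.15 ± 0.43, adjusted p = 0.0203), and the call was lost without epidermis 2, epidermis 3 or whole funiculus 3 (highest adjusted p of 0.213). The other copy, BnaC07g13200D, had 5.26, 2.07 and 3.81 FPKM in the epidermis, against 71.7 and 4.69 FPKM in the whole funiculus, where whole funiculus 1 alone was high (adjusted p = 0.234). The *PDR4* homolog BnaA04g15520D, for an ABC transporter of the pleiotropic drug resistance type, had 21.6, 25.1 and 24.2 FPKM in the epidermis, against 10.3 and 8.62 FPKM in the whole funiculus (1.24 ± 0.27, adjusted p = 0.0300, and from 0.0556 to 0.171 with 1 library left out). The *AOC3* homolog BnaC07g22930D, for an enzyme of jasmonate synthesis, had 15.7, 2.05 and 2.83 FPKM in the epidermis and was listed at 0 in both whole funiculus libraries and in every cortex and vasculature library, but missed the threshold (adjusted p = 0.0570).

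Wall-modifying genes separated into an even and an uneven kind. Of the 20 pectin and wall modification transcripts, again picked by the study on these libraries, 0 passed the limma test and 8 had an unadjusted p under 0.05, all higher. Their median log2 difference was 1.504, and in 7 of 20 the groups did not overlap. Over all transcripts, all epidermis libraries lay above both whole funiculus libraries for 14.4%. The *PME3* homolog BnaA05g25150D, for a pectin methylesterase, had 47.5, 36.9 and 34.2 FPKM in the epidermis, against 18.8 and 9.23 FPKM in the whole funiculus (1.497, adjusted p = 0.162). The extensin family transcript BnaC09g09070D had 26.1, 19.3 and 14.3 FPKM in the epidermis, against 7.84 and 6.87 FPKM in the whole funiculus (1.29, adjusted p = 0.0520, and from 0.0407 to 0.263 with 1 library left out, passing in 1 of 5 fits). In these transcripts every epidermis library was above the whole funiculus. On A01, the pectin methylesterase transcript BnaA01g03620D (*PME44*) had 52.8, 65.2 and 59.4 FPKM in the epidermis, against 22.4 and 23.4 FPKM in the whole funiculus (1.33 ± 0.29, adjusted p = 0.0341), the 1 call among 15 pectin and xyloglucan transcripts there, and it was lost in each fit without 1 library (adjusted p from 0.0606 to 0.148).

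The uneven kind was mostly high in epidermis 1. Of the 13 wall transcripts whose groups overlapped, epidermis 1 was the highest epidermis library for 11 and epidermis 2 for the other 2, the *XTR6* homolog BnaC01g17710D and BnaC01g39640D. The pectate lyase transcript BnaCnng05770D had 111, 5.39 and 0.929 FPKM in the epidermis, against 5.91 and 0 FPKM in the whole funiculus (2.08, adjusted p = 0.597). The *VGD1* homolog BnaA03g21590D, for a pectin methylesterase of pollen tubes, had 59.6, 5.95 and 0 FPKM in the epidermis, against 5.33 and 0.0919 FPKM in the whole funiculus (1.51, adjusted p = 0.693). In both, epidermis 1 was highest, epidermis 3 at or near 0, and whole funiculus 1 above whole funiculus 3. The pectate lyase transcripts BnaA06g09240D and BnaCnng60280D showed the same order, with 45.8 and 36.1 FPKM in epidermis 1 and at most 2.15 FPKM in the other 2 epidermis libraries.

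The pollen tube list had this pattern too, but it contains most of the uneven wall transcripts above and is no second set of genes. Some of its members are described only as unknown or F-box proteins. Pollen tubes grow over the funiculus to reach the ovule, and their RNA includes secreted pectin enzymes, RALF peptides and arabinogalactan proteins. The 26 pollen tube transcripts, all from the study's epidermis list, summed to 1639, 194 and 5.36 FPKM in epidermis 1, 2 and 3, against 113 and 0.915 FPKM in whole funiculus 1 and 3. In vasculature 1, 2 and 3 the same 26 transcripts summed to 53.6, 203 and 1.96 FPKM, and in cortex 1 and 2 to 35.4 and 28.3 FPKM. Their median log2 difference of 1.73 was above that of the cuticle list, yet 0 of 26 passed the limma test, 1 had an unadjusted p under 0.05, and 0 of 26 had groups that did not overlap. The defining markers were at 0 in epidermis 3 for *VGD1*, *RALFL4*, *RALFL19*, *SKS14* and *CPK34*, whereas the *AGP23* homolog BnaA03g19650D, for an arabinogalactan protein of pollen, had 302, 33.0 and 1.26 FPKM in the epidermis, against 32.8 and 0 FPKM in the whole funiculus. Epidermis 1 also had the most transcripts that stood out among the epidermis libraries, at 10 FPKM or more and at least 10 times each other epidermis library. There were 457, against 96 in epidermis 2 and 112 in epidermis 3, and 30 of the 457 were on the study's epidermis list. The other tissues were not part of this count. The part of pollen tubes in these values was not tested.

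Phloem genes were the list with the largest share of calls. Of the 25 phloem transcripts tested, 20 were lower and 0 higher, with a median log2 difference of -3.43. All 25 lay below the whole funiculus in every epidermis library. Over all transcripts, 3.3% were called lower and 16.7% lay below in this way. The members come from the study's vasculature list and so are no independent evidence of direction. The count stayed at 15 to 19 in the 5 fits that left out a library and was 1 with whole funiculus 2 added.

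*PP2-A1* encodes a lectin of sieve elements and companion cells. Its homolog BnaA01g34970D had 3.99, 2.51 and 0.578 FPKM in the epidermis, against 281 and 242 FPKM in the whole funiculus. The epidermis mean was lower by 111 times, with a log2 difference of -6.44 ± 0.45 (adjusted p = 0.000130), and the call was kept in all 5 fits without 1 library. The *TSF* homologs encode proteins of the family of the mobile flowering signal. BnaC06g27090D had 57.9, 20.2 and 21.9 FPKM in the epidermis, against 1698 and 2181 FPKM in the whole funiculus (-5.98 ± 0.54, adjusted p = 0.000271). Even so, each of its epidermis levels was above the median of 17.4 FPKM that the gained transcripts had there. The second homolog, BnaA07g25310D, had 14.98, 17.5 and 4.01 FPKM in the epidermis, against 379 and 530 FPKM in the whole funiculus (-5.30 ± 0.75, adjusted p = 0.00300, and 0.0719 without whole funiculus 3).

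Transporters and regulators of the phloem were among the calls. The *SUC2* homolog BnaC05g17970D, for the sucrose-proton symporter of companion cells, had 0.733, 2.05 and 0.707 FPKM in the epidermis, against 36.6 and 19.9 FPKM in the whole funiculus (-3.75 ± 0.48, adjusted p = 0.00183). Another *SUC2* homolog, BnaA09g30430D, was called, and BnaA07g10320D was not (-1.87, adjusted p = 0.087). The *AHA3* homolog BnaC02g11560D, for the proton pump that drives such uptake, had 0.676, 0.993 and 0.979 FPKM in the epidermis, against 38.2 and 30.2 FPKM in the whole funiculus (-4.22, adjusted p = 0.000149). The *SWEET13* homolog BnaC09g27000D, for a sugar exporter, was listed at 0 in all epidermis libraries, against 40.8 and 22.9 FPKM in the whole funiculus (adjusted p = 0.000271). Of 3 tested *NAKR1* homologs, which in *Arabidopsis* act in phloem function, all 3 were called lower and listed at 0 in the epidermis, and 1 of them, BnaAnng00410D, lost its call without whole funiculus 3 (adjusted p = 0.144). The *APL* homolog BnaA07g34920D, for a regulator of phloem identity, was also listed at 0 in the 3 epidermis libraries, against 13.7 and 18.5 FPKM in the whole funiculus (adjusted p = 0.000150).

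**Figure D4:**
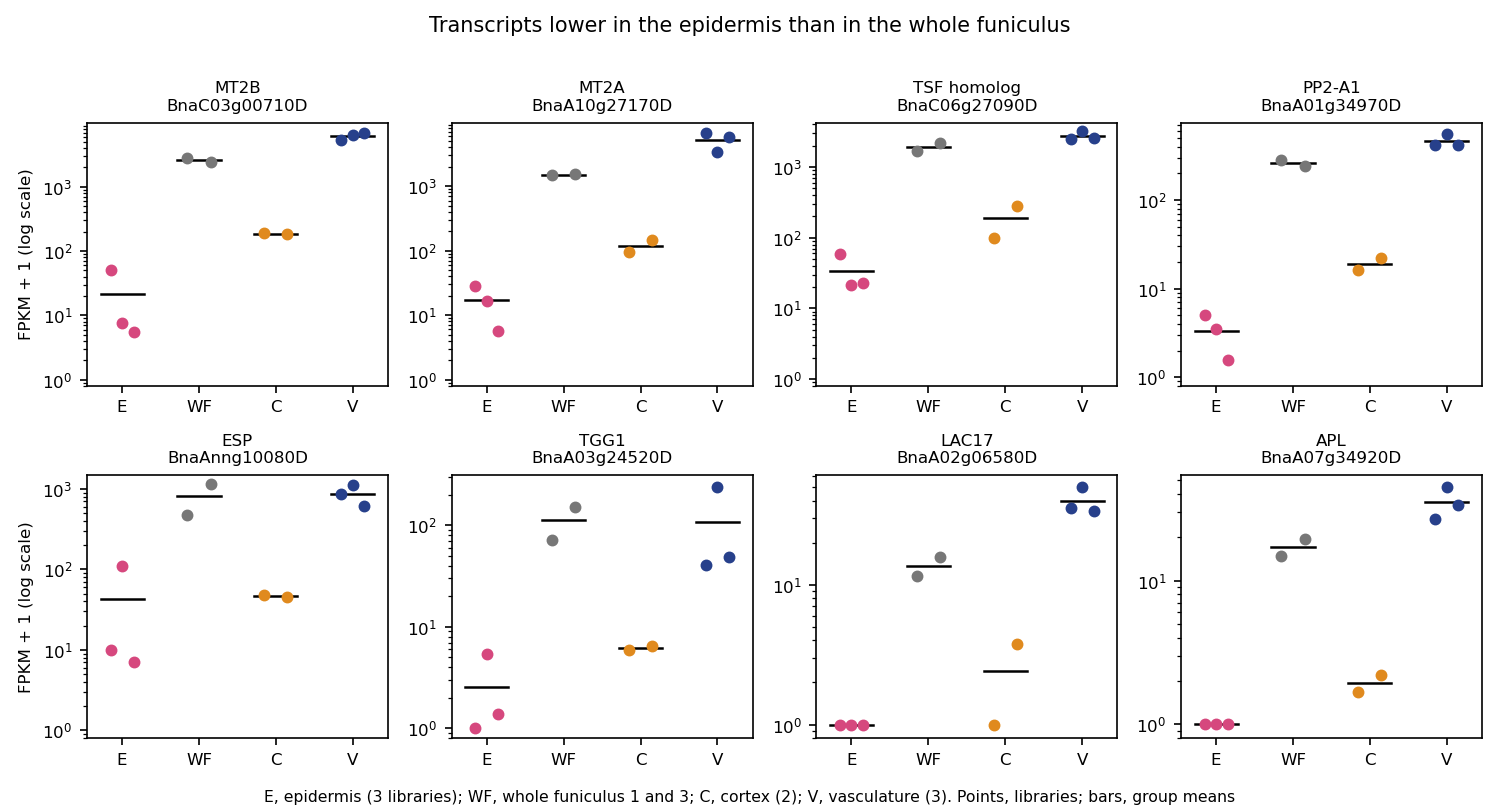
FPKM + 1 on log axes for 8 transcripts called lower in the epidermis, with epidermis (E), whole funiculus 1 and 3 (WF), cortex (C) and vasculature (V) from left to right, points for libraries and bars for group means. In each panel the epidermis points lie below both whole funiculus points, for *MT2B* at 4.50 to 49.7 FPKM against 2447 and 2839 FPKM, while the *ESP* panel shows epidermis 2 apart from the other epidermis libraries at 110 FPKM.

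Metallothioneins, small cysteine-rich proteins that bind metal ions, showed the largest fall among described genes. The *MT2B* homolog BnaC03g00710D had 49.7, 6.52 and 4.50 FPKM in the epidermis, against 2839 and 2447 FPKM in the whole funiculus and 5327 to 6844 FPKM in the vasculature. Epidermis 1 was the highest of the 3, and the log2 difference was -7.69 ± 0.76 (adjusted p = 0.000427), a call kept without any 1 library. The *MT2A* homolog BnaA10g27170D had 27.6, 15.5 and 4.67 FPKM in the epidermis, against 1484 and 1526 FPKM in the whole funiculus (-6.76 ± 0.60, adjusted p = 0.000266). Not every copy did so: the *MT2A* homolog BnaC02g03550D had 133, 104 and 264 FPKM in the epidermis, against 317 and 190 FPKM in the whole funiculus, with overlapping groups (-0.67, adjusted p = 0.596). It was the copy with the highest level in the epidermis, and the difference between copies was not tested.

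Across the 14 metal handling transcripts tested, 10 were lower and 0 higher, with a median of -3.35, where 3.3% of all transcripts were called lower. All 14 were drawn from the study's lists, chosen on these libraries, which fixed their direction in part. The *NRAMP1* homolog BnaA02g36240D, for a metal ion importer, had 1.35, 2.63 and 0.559 FPKM in the epidermis, against 28.6 and 20.9 FPKM in the whole funiculus (adjusted p = 0.00384, and 0.0603 without whole funiculus 1). The *ZIP1* homolog BnaC05g40440D, for a zinc transporter, had 0, 0.871 and 1.80 FPKM in the epidermis, against 15.8 and 15.8 FPKM in the whole funiculus (adjusted p = 0.0352, lost in 4 of 5 fits without 1 library, at up to 0.24). The *FER1* homolog BnaC03g00160D, for an iron store, had 44.6, 6.08 and 4.52 FPKM in the epidermis, against 20.9 and 13.8 FPKM in the whole funiculus, with epidermis 1 above both (adjusted p = 0.861). The list had 4 calls without whole funiculus 1, 6 without whole funiculus 3 and 1 with whole funiculus 2 added.

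Xylem genes were lost at low levels. The shares over all transcripts were 3.3% called lower and 16.7% below the whole funiculus in every epidermis library. Of the 27 xylem and secondary wall transcripts tested, 16 were lower and 0 higher with a median of -2.03, and 20 of the 27 were listed at 0 in the 3 epidermis libraries (28 of the 35 that include untested members). The *LAC17* homolog BnaA02g06580D, for a laccase that polymerises lignin, was at 0 in all epidermis libraries, against 10.6 and 14.8 FPKM in the whole funiculus (-3.76 ± 0.49, adjusted p = 0.00194). The *ACL5* homolog BnaC02g08800D, for the thermospermine synthase that delays vessel maturation, had 0.733, 1.15 and 0.265 FPKM in the epidermis, against 15.7 and 22.9 FPKM in the whole funiculus (-3.57 ± 0.38, adjusted p = 0.000655). The *IRX3* homolog BnaA03g06610D, a cellulose synthase of secondary walls, had 0.280, 0.147 and 0.405 FPKM in the epidermis, against 3.74 and 5.43 FPKM in the whole funiculus (-2.12, adjusted p = 0.00214). All 27 lay below the whole funiculus in every epidermis library, including those not called, such as the *NST1* homolog BnaAnng41940D for a NAC regulator of secondary walls (0, 0 and 0 FPKM in the epidermis, 1.99 and 6.55 FPKM in the whole funiculus, adjusted p = 0.0546). The count was 6 without whole funiculus 3, 15 without whole funiculus 1 and 1 with whole funiculus 2 added. These members too stem from lists that the study picked on these libraries, so their direction is no independent evidence.

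Myrosinase and specifier genes made up the defence genes that fell. Myrosinases split glucosinolates, the mustard oil precursors of the Brassicaceae, and specifier proteins steer the product. Of 22 defence and glucosinolate breakdown transcripts, 11 were lower and 2 higher, and the 11 were 9 copies of *TGG1*, the myrosinase gene, and 2 of *ESP*, the epithiospecifier gene. For comparison, 3.3% of all transcripts tested were called lower and 0.628% higher. Members of this list were taken from the study's lists, picked by level on these libraries, and are no independent evidence of direction. The *TGG1* homolog BnaA03g24520D had 0, 4.34 and 0.374 FPKM in the epidermis, against 70.1 and 152 FPKM in the whole funiculus (-5.75 ± 0.84, adjusted p = 0.00381, and 0.09 without whole funiculus 3). The *ESP* homolog BnaAnng10080D had 9.07, 110 and 6.04 FPKM in the epidermis, against 474 and 1141 FPKM in the whole funiculus (-5.21 ± 0.97, adjusted p = 0.0143, and up to 0.201 with 1 library left out). Epidermis 2 was the highest epidermis library for both *ESP* copies and for 8 of the 9 *TGG1* copies, and reads shared between similar copies can count in several of them. The list had 4 lower calls without whole funiculus 3, 5 without whole funiculus 1 and 1 with whole funiculus 2 added.

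The cell division list was lower in direction with few calls. Of 37 replication, histone and division transcripts tested, 5 were lower and 0 higher, with a median of -1.16, where 3.3% of all transcripts were called lower. The direction of the 37 is no independent evidence, since they come from lists that the study chose on these libraries. The HMG-box transcript BnaA01g13430D, for a chromatin protein, was at 0 in all epidermis libraries, against 6.98 and 12.9 FPKM in the whole funiculus (-3.40 ± 0.31, adjusted p = 0.000286). The *KNOLLE* homolog BnaA08g26870D, for the syntaxin that builds the cell plate, was also at 0, against 2.42 and 3.88 FPKM in the whole funiculus (adjusted p = 0.00610). Both were listed at 0 in the cortex too. The *PCNA1* homolog BnaC08g45280D, for the clamp of DNA polymerase, had 1.11, 0.580 and 3.20 FPKM in the epidermis, against 8.56 and 7.88 FPKM in the whole funiculus (-1.94, adjusted p = 0.0524). The groups overlapped for 10 of the 37, among them the histone H4 transcript BnaAnng15490D with 21.1, 27.4 and 39.5 FPKM in the epidermis, against 44.9 and 36.3 FPKM in the whole funiculus.

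Auxin genes, again drawn from lists that the study chose on these libraries, were split. Of 8 auxin transport and response transcripts, 3 were lower and 0 higher. The other 5 lay above the whole funiculus in every epidermis library without being called. Over all transcripts, 3.3% were called lower and 14.4% lay above in this way. The 3 lower calls fell to 0 without whole funiculus 1 or whole funiculus 3 and to 1 without any 1 epidermis library. The *AUX1* homolog BnaC04g07210D, for an auxin importer, had 10.6, 9.98 and 9.29 FPKM in the epidermis, against 4.05 and 2.92 FPKM in the whole funiculus (1.30, adjusted p = 0.170). The other *AUX1* homolog, BnaA05g06540D, had 6.80, 3.45 and 4.29 FPKM in the epidermis, against 1.55 and 2.35 FPKM in the whole funiculus (0.96, adjusted p = 0.217). The exporter genes differed in direction: the *ABCB19* homolog BnaC09g01920D had 9.20, 7.27 and 6.89 FPKM in the epidermis, against 3.56 and 3.43 FPKM in the whole funiculus (0.96, adjusted p = 0.140). The *PIN4* homolog BnaC02g22310D was at 0 in all epidermis libraries, against 3.00 and 2.66 FPKM in the whole funiculus (-1.94, adjusted p = 0.0359, and from 0.0803 to 0.195 with 1 library left out). The *ARF4* homolog BnaA10g13260D, for an auxin response factor, had 0.183, 0.192 and 0.529 FPKM in the epidermis, against 2.83 and 3.71 FPKM in the whole funiculus (-1.72 ± 0.33, adjusted p = 0.0162, and lost without whole funiculus 1 or 3, at up to 0.139). A SAUR-like transcript, BnaCnng01670D, was at 0 in the epidermis, against 25.8 and 16.6 FPKM in the whole funiculus (-4.44, adjusted p = 0.0187, and from 0.0526 to 0.177 with 1 library left out).

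Patterning regulators and water channels were called mostly lower. Of 8 vascular patterning transcripts 5 were lower, among them the *PHB* homolog BnaA04g20300D, an HD-ZIP III regulator, with 0.167, 0.350 and 0.844 FPKM in the epidermis, against 4.15 and 4.45 FPKM in the whole funiculus (-1.89, adjusted p = 0.00509, and 0.058 without whole funiculus 3). The *SHP2* homolog BnaA05g02990D, a MADS-box regulator of fruit and ovule development, had 4.69, 4.55 and 2.35 FPKM in the epidermis, against 18.3 and 18.3 FPKM in the whole funiculus (-2.03, adjusted p = 0.00830, and up to 0.0806 without whole funiculus 1 or 3). The list had 0 calls without whole funiculus 3. Both this list and the aquaporins were drawn from the study's picks on these libraries, so that direction was fixed in part. The shares called over all transcripts were 3.3% lower and 0.628% higher. Of the 8 aquaporin transcripts, 4 were lower and *PIP2E* alone was higher. The 4 lower calls fell to 1 without whole funiculus 1 or whole funiculus 3, and *PIP2E* and *NIP6;1* lost theirs in all 5 fits without 1 library. The *TIP1;1* homolog BnaAnng24130D, for a vacuolar water channel, had 2.30, 2.41 and 2.49 FPKM in the epidermis, against 14.3 and 12.5 FPKM in the whole funiculus and 52.3 and 35.2 FPKM in the cortex (-2.08 ± 0.29, adjusted p = 0.00255). It was thus highest in the cortex, unlike the *NIP6;1* and *PIP1;5* homologs, which were listed at 0 in the epidermis and were highest in the vasculature. A *PIP2B* homolog, BnaC04g08090D, had 6.21, 9.78 and 30.3 FPKM in the epidermis, against 14.4 and 9.96 FPKM in the whole funiculus.

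The extensin-like and lipid transfer genes of the cortex list had a median below that of all transcripts and no limma call. Of 26 extensin-like and lipid transfer transcripts from the study's cortex list, 0 were called (limma) and 6 had an unadjusted p under 0.05, all lower, with a median of -0.45. The list had 12 members below the whole funiculus in every epidermis library, where 16.7% of all transcripts lay below, and 1 above. Over the study's whole cortex list this held for 24 of 53, with a median of -0.63. The extensin-like transcript BnaA06g38220D had 168, 194 and 135 FPKM in the epidermis, against 293 and 450 FPKM in the whole funiculus (-1.14, adjusted p = 0.154). The median was 0.19 with whole funiculus 2 added. Over the study's whole lists, 26 of 139 epidermis transcripts were higher and 0 lower, 1 of 53 cortex transcripts was lower, and 381 of 623 vasculature transcripts tested were lower, but these lists were chosen on these libraries.

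Lists of genes with general roles came from chromosome A01 and the start of A02. Of 31 ribosomal protein transcripts 0 were called by limma and 2 had an unadjusted p under 0.05, with a median of 0.36. Of 10 photosynthesis transcripts 0 were called and 0 had an unadjusted p under 0.05, with a median of -0.24. The photosystem II transcript BnaA01g11190D had 18.3, 34.4 and 72.7 FPKM in the epidermis, against 36.8 and 31.4 FPKM in the whole funiculus, with the epidermis libraries on both sides. Of 22 heat shock and chaperone transcripts 1 was lower, of 44 protein kinases 2 were lower, and of 10 WRKY, jasmonate and ethylene regulators 0 were called, with 2 at an unadjusted p under 0.05. The ubiquitin-conjugating enzyme transcript BnaA01g01300D was listed at 0 in all epidermis libraries, against 20.1 and 9.49 FPKM in the whole funiculus (-3.90 ± 0.41, adjusted p = 0.000579). The receptor-like kinase transcript BnaA01g35050D was at 0 in the epidermis, against 6.29 and 8.19 FPKM in the whole funiculus (-3.03 ± 0.30, adjusted p = 0.000449). Over all 1807 tested transcripts of this stretch, 15 were higher and 50 lower with a median of 0.07. This was close to the shares of 0.628% and 3.3% over all transcripts. The study listed the stretch as detected, at a mean of 1 FPKM or more. Some of its members, such as BnaA01g13430D, are also on the study's vasculature list.

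**Figure D5:**
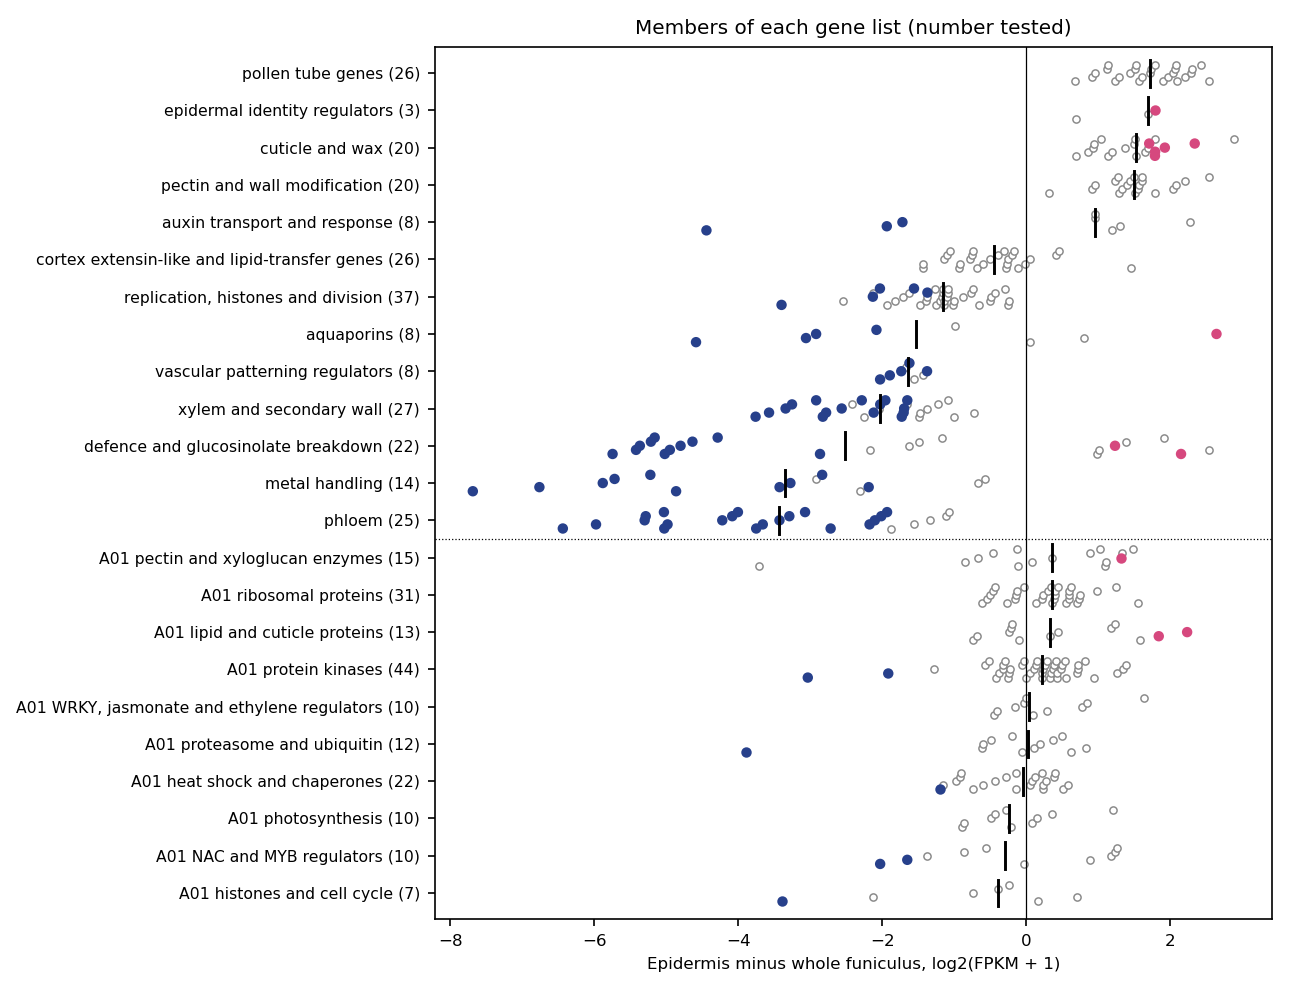
Log2(FPKM + 1) difference, epidermis minus whole funiculus, of each tested member of 23 gene lists, with the number tested in brackets, a bar at the list median, filled pink points called higher, filled blue points called lower and open points not called. The phloem list has its median at -3.43 and 20 of 25 members called lower, the pollen tube list has its median at 1.73 with 0 of 26 called, and lists from chromosome A01 below the dotted line centre between -0.39 and 0.37.

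Some of the largest differences lay in transcripts with no description in the sources used here. BnaA06g01380D was listed at 0 in all epidermis libraries, against 439 and 500 FPKM in the whole funiculus, the largest difference of all (-8.88 ± 1.73, adjusted p = 0.0182). Unlike most losses it was high in the cortex (665 and 338 FPKM), with 148, 0 and 0 FPKM in the vasculature, so that an abundant transcript could be listed at 0 in single libraries of another tissue. Its call was lost in each fit without 1 library (adjusted p from 0.0516 to 0.187). BnaC04g42160D was also at 0 in the epidermis, against 253 and 192 FPKM in the whole funiculus (-7.79 ± 0.36, adjusted p = 4.45e-05), and was present in every cortex library (171 and 86.7 FPKM) and vasculature library (267 to 459 FPKM). The call was kept without any 1 library. Among the gains, BnaC06g24880D had 679, 303 and 801 FPKM in the epidermis, against 157 and 29.8 FPKM in the whole funiculus, and 0 in all vasculature libraries (2.97 ± 0.69, adjusted p = 0.0436), with the call lost without epidermis 1, epidermis 3 or whole funiculus 3 (highest adjusted p of 0.348). BnaA08g24180D had 88.8, 78.0 and 173 FPKM in the epidermis, against 15.9 and 10.04 FPKM in the whole funiculus (2.97 ± 0.49, adjusted p = 0.00725, and 0.117 without whole funiculus 3).

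Among described losses outside the gene lists, 3 had levels as follows, and all 3 were picked by the study as high in the vasculature of these libraries. The *CXXS1* homolog BnaC08g42020D, for a thioredoxin-like protein, was at 0 in all epidermis and cortex libraries, against 95.8 and 145 FPKM in the whole funiculus (-6.90 ± 0.66, adjusted p = 0.000342). The *ENODL9* homolog BnaA05g20350D, for an early nodulin-like protein, was at 0 in the epidermis, against 48.1 and 108 FPKM in the whole funiculus (-6.19 ± 0.44, adjusted p = 0.000131). The TRAF-like transcript BnaC05g31680D had 5.17, 0 and 0.701 FPKM in the epidermis, against 153 and 222 FPKM in the whole funiculus (-6.40 ± 0.82, adjusted p = 0.00183). In all 3 the epidermis libraries lay far below both whole funiculus libraries.

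Few transcripts were detected in the epidermis alone with the same certainty in each library. By group mean at 1 FPKM, 36790 transcripts were detected in the epidermis and 37978 in the whole funiculus, with 32862 in both. The epidermis alone had 3928, but of these 1591 rested on 1 epidermis library, 663 reached 1 FPKM in all 3, and 37 were called. The whole funiculus alone had 5116, of which 3130 reached 1 FPKM in both libraries and 1087 were called. Of the 144 epidermis-only transcripts that averaged 10 FPKM or more, 89 rested on a single library, which was epidermis 1 for 51. Among the called ones, BnaA01g13770D, described as found in a screen for stress response, had 15.6, 8.19 and 6.46 FPKM in the epidermis, against 1.05 and 0 FPKM in the whole funiculus (2.87 ± 0.55, adjusted p = 0.0158, and up to 0.202 with 1 library left out). The undescribed BnaA05g04530D, the highest of the 37 by epidermis mean, had 13.49, 8.09 and 16.7 FPKM in the epidermis, against 0.603 and 0.687 FPKM in the whole funiculus (3.01 ± 0.50, adjusted p = 0.00712, and up to 0.0905 with 1 library left out).

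Full sets of homologous copies were called in the losses alone. Canola carries copies of most *Arabidopsis* genes on its A and C subgenomes. Of 134 *Arabidopsis* genes with 2 or more tested copies on the study's lists, 55 had all copies called lower, 0 had all copies called higher, and 0 had copies called in both directions. Those lists hold 684 vasculature and 139 epidermis transcripts, chosen by level on these libraries, and copies outside them were not counted. The split between losses and gains was thus fixed in part by that choice. Shared reads between near-identical copies limit what these counts say about single copies.

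The losses held better than the gains when libraries were left out. Over all calls, 72.6, 72.1 and 74.2% of the losses recurred without epidermis 1, 2 and 3, against 41.4, 49.4 and 46.0% of the gains. The transcripts followed by name were largely picked for large differences and do not stand for all calls. Of the 23 gained transcripts followed by name, 6, 11 and 9 kept their call without epidermis 1, 2 and 3, 7 without whole funiculus 1 and 4 without whole funiculus 3. Of the 64 lost transcripts, 52 kept it without epidermis 1, 52 without epidermis 2, 52 without epidermis 3, 41 without whole funiculus 1 and 33 without whole funiculus 3. With whole funiculus 2 added, 2 of the 23 and 6 of the 64 kept their call.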

How the data were processed

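RNA of laser-dissected funiculus tissue and of whole funiculi was amplified, sequenced as 50 bp single-end reads and processed by the authors, whose notes name TopHat2 2.0.13, Cufflinks 2.2.1 and DESeq. The authors deposited FPKM values from Cufflinks, 1 column per library, with no counts. Depth was judged relatively, from FPKM ratios of transcripts above 0 in at most 4 libraries, and the paper's summary of read alignments was not used. Transcript descriptions came from the study's lists and from its annotation of A01 and the start of A02, of which only that stretch was held here.

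Here, transcripts averaging at least 1 FPKM in the epidermis or in whole funiculus 1 and 3 were taken as log2(FPKM + 1) and fitted with limma 3.58.1 in R 4.3.3 (empirical Bayes with a variance trend) over 10 libraries in 4 groups. The difference was epidermis minus whole funiculus, with Benjamini-Hochberg adjustment over all 41906 transcripts and a threshold of 0.05. Fold changes on this scale understate those of low transcripts. The script was tested on simulated data. Named transcripts were, in each direction, the 10 largest calls with a description and the 5 largest of any kind (at least 10 FPKM in the higher group, groups apart), the 3 highest calls detected in 1 group alone, and up to 6 calls per gene list with its defining members. A few further members that were not called, such as *PIP2B*, histone H4, the photosystem II and A02 *MYB16* transcripts and BnaA04g18980D, were chosen after their values were seen. The members and lists were chosen with earlier results of these data known. Alternatives changed the libraries, pseudocount, filter, scaling, trend and replicate block. Promoter motifs were not run, and no sequence was used here.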

Additional observations from a re-analysis of the deposited data

Results flagged for a closer look

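Whole funiculus 2, which entered no comparison, held 3497 transcripts at 10 FPKM or more that were listed at 0 in the 10 other libraries. The other libraries had 11 to 90 such transcripts each. This is a signal in a library outside the comparisons, and its source was not tested.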

How the results depend on the processing

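Against 263 higher and 1384 lower transcripts, the 5 libraries alone gave 100 and 909, adding whole funiculus 2 gave 4 and 155, a pseudocount of 0.1 FPKM gave 127 higher, and no filter gave 175 higher. Leaving out 1 library gave 48 to 195 higher and 731 to 1171 lower, with both lowest counts without whole funiculus 3. With the replicate block, 133 were higher and 1067 lower, but no source says that the shared numbers mark a pairing. Deviations of same-numbered libraries correlated at 0.07 and -0.08. This cannot decide the question, because the deviations of only 2 whole funiculus libraries mirror each other. Whole funiculus detection alone covered 17523 transcripts with whole funiculus 2 added, against 5116. The share of higher calls with the epidermis highest, 98.1%, was 100% with whole funiculus 2, 94.49% with a pseudocount of 0.1 FPKM, 95.33% after quantile normalization and 94.69 to 96.92% without 1 library. The share of lower calls with the vasculature highest, 95.8%, was 94.5% with the 5 libraries alone, 96.91% with the block, 92.81% without a filter and 78.31 to 95.91% without 1 library. Quantile normalization gave 364 higher and 1304 lower, so that 21.8% of calls were higher, against 16.0%. The DnaJ transcript BnaA01g20230D changed sign with whole funiculus 2 added, at 0.5847 (adjusted p = 0.741) against -1.20. The cause of these shifts was not tested. Shallow epidermis libraries limit what a listed 0 shows.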
